A study of Canis lupus familiaris with 20 samples.

Results

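The dog leukocyte antigen (DLA) genes encode the canine molecules of the major histocompatibility complex (MHC). On the canine arrays used here, 9 genes had a symbol beginning with DLA or HLA-, found by matching the RefSeq accession of each probe, and they were read by 19 of the 43603 distinct probes. They were 9 of the 1045 genes that could be given a symbol. The 3 class I genes (DLA88, DLA-64 and DLA-79) were covered by 5 probes and the 6 class II genes (DLA-DRA, HLA-DRB1, DLA-DQA1, DLA-DQB1, DLA-DMA and DLA-DOB) by 14 probes. The canine DR beta gene carries the symbol HLA-DRB1 in the annotation used. Where a gene had several probes, they are numbered from the brightest to the dimmest.

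Canine mammary cancer cells of 5 lines were grown with canine macrophages for at least 72 h, and each population was compared with the same kind of cells grown as a mono-culture. The lines were CMT-U27, from a simple carcinoma, CMT-U309, from a spindle-cell tumour, P114, from an anaplastic cancer, and CMT-W1 and CMT-W2, from adenocarcinomas. The macrophages were derived from CD64+ monocytes sorted from the blood of healthy dogs; the labels name no genetic change or drug in any group. Cancer cells of the co-cultures had been stained with the dye CMTMR before the monocytes were added, and a flow sorter then separated stained cells, taken as cancer cells, from unstained cells, taken as macrophages. Whether the mono-cultured cancer cells on the arrays were stained as well is not stated. By the study's methods the co-cultured cells were detached with trypsin and sorted before RNA was isolated, whereas mono-cultured cells were washed and scraped. In every ratio of co-culture to mono-culture, effects of harvest and sorting therefore cannot be told apart from those of co-culture. Each of the 20 two-colour arrays carried co-culture RNA in one dye and mono-culture RNA in the other, and the 2 arrays of a pair held the same RNAs with the dyes exchanged. A pair was counted as 1 replicate, so that n = 5 for each cell type, 1 per line. How many separate macrophage mono-cultures were made is not stated, so the p-values may leave out part of that culture's spread. Log2 levels of one probe in the 5 mono-cultured macrophage samples had a median SD of 0.19 for class I and 0.14 for class II, against 1.49 and 1.81 in the mono-cultured cancer lines.

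Class I molecules sit on nearly all nucleated cells and show peptides from inside the cell to CD8+ T cells. Class II molecules are alpha-beta pairs carried by macrophages, dendritic cells and B cells, among others. They show peptides from engulfed material to CD4+ T cells. DM loads peptides onto class II molecules in endosomes and DO holds DM back, and interferon-gamma can induce class II genes in many other cell types through the transactivator CIITA. DLA88 is the polymorphic classical class I gene of the dog, while DLA-64 and DLA-79 are non-classical class I genes. In the gene table of the assembly UU_Cfam_GSD_1.0, DLA88 and DLA-64 are neighbours among the class I genes of the MHC region and the class II genes lie together on the same chromosome, while DLA-79 lies on another chromosome. Class I genes of the dog resemble each other closely, as do alleles of the class II chains, so how far one probe also bound RNA of a related gene or missed an allele was not tested. The probe sequences were not used here.

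The study's own purity checks of the sort, by flow cytometry and fluorescence microscopy, are not among the values analysed here. The sorted populations were compared with their labels by marker RNA. Of 21 macrophage markers, 10 had a probe (CD163, FCGR1A, C5AR1, ADGRE1, CD86, CD209, TYROBP, FCER1G, CYBB and CTSS). In mono-cultured macrophages their summed log2 level was 19.4 to 19.8, with all 10 well above background in each sample. In mono-cultured cancer lines it was 11.7 to 14.7, with 2 to 10 markers well above background. After co-culture it was 14.2 to 19.0 in the sorted cancer cells and 16.0 to 18.0 in the sorted macrophages, so that these ranges overlapped. In the cancer cells 9 of the 10 markers rose (median log2 ratio 4.14), and in the macrophages 9 of the 10 fell (median -3.56). Over 27982 probes the levels of both populations sorted from one co-culture correlated at 0.826 to 0.979 (median 0.94), against 0.536 to 0.767 between the mono-cultures. The sorted macrophages of the P114 co-culture correlated at 0.921 with mono-cultured P114 cells and at 0.795 with mono-cultured macrophages, and those of CMT-U27 at 0.862 and 0.809. Both values differed by less than 0.01 for CMT-U309 and CMT-W1, and with CMT-W2 the order was turned, at 0.81 with the cancer line and 0.828 with macrophages. These are correlations across probes, which are not independent replicates. In sorted bulk RNA, a change in the share of cells of a type and a change in RNA per cell cannot be told apart.

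In mono-culture, class I levels were higher in macrophages than in the cancer lines. The log2 level of the DLA88 probe was 14.99 in CMT-U27, 14.3 in CMT-U309, 14.1 in P114, 10.5 in CMT-W1 and 13.1 in CMT-W2, and 18.0 to 18.8 in the macrophages. CMT-W1 was the lowest line, and no cancer line reached the macrophage range. The difference was 4.98 on the log2 scale (SE 0.71, adjusted p = 0.000273). The 3 DLA-64 probes gave differences of 4.32, 4.98 and 4.81 (adjusted p = 0.00025, 9.67e-05 and 4.2e-05), again with no overlap. How many of all probes separated the groups in this way was not counted, so the lack of overlap is description only. DLA-79 did not follow this pattern. Its level was 7.61 in CMT-U27, 8.06 in CMT-U309, 6.84 in P114, 11.6 in CMT-W1 and 10.2 in CMT-W2, and 10.2 to 10.6 in the macrophages. CMT-W1, the lowest line for DLA88, was thus the highest for DLA-79 and above every macrophage sample, and the groups did not differ by the test (1.52 higher in macrophages, SE 0.79, adjusted p = 0.157).

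Class II levels in mono-culture were higher in macrophages for all 13 probes tested, by 2.07 to 5.01 on the log2 scale (median 4.16, adjusted p of 0.0486 or less). Of class I, 4 of the 5 probes were called higher. Among all 27829 probes tested, 20.1% were called higher in macrophages and the median difference was 0.13. CMT-U27 stood highest among the cancer lines for DLA-DRA, HLA-DRB1, DLA-DQA1, DLA-DQB1 and DLA-DMA by their brightest probes. HLA-DRB1, the DR beta chain, had a level of 15.8 in CMT-U27, 13.3 in CMT-U309, 11.3 in P114, 11.7 in CMT-W1 and 12.7 in CMT-W2, and of 16.6 to 16.9 in the macrophages. DLA-DQA1, the DQ alpha chain, was at 12.1 in CMT-U27, 7.71 in CMT-U309, 8.14 in P114, 9.09 in CMT-W1 and 7.74 in CMT-W2, against 10.9 to 11.2 in macrophages. CMT-U27 therefore exceeded the macrophages for DLA-DQA1, by both of its probes. Levels of DLA-DOB, the DO beta chain, were 5.33 to 6.67 in the lines and 8.78 to 9.39 in the macrophages by its brighter probe, which was well above background on 5 of the 10 mono-culture channels of the cancer lines. Its dimmer probe was well above background on 3 of 10 channels in either mono-culture and was not tested for this difference.

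**Figure D1:**
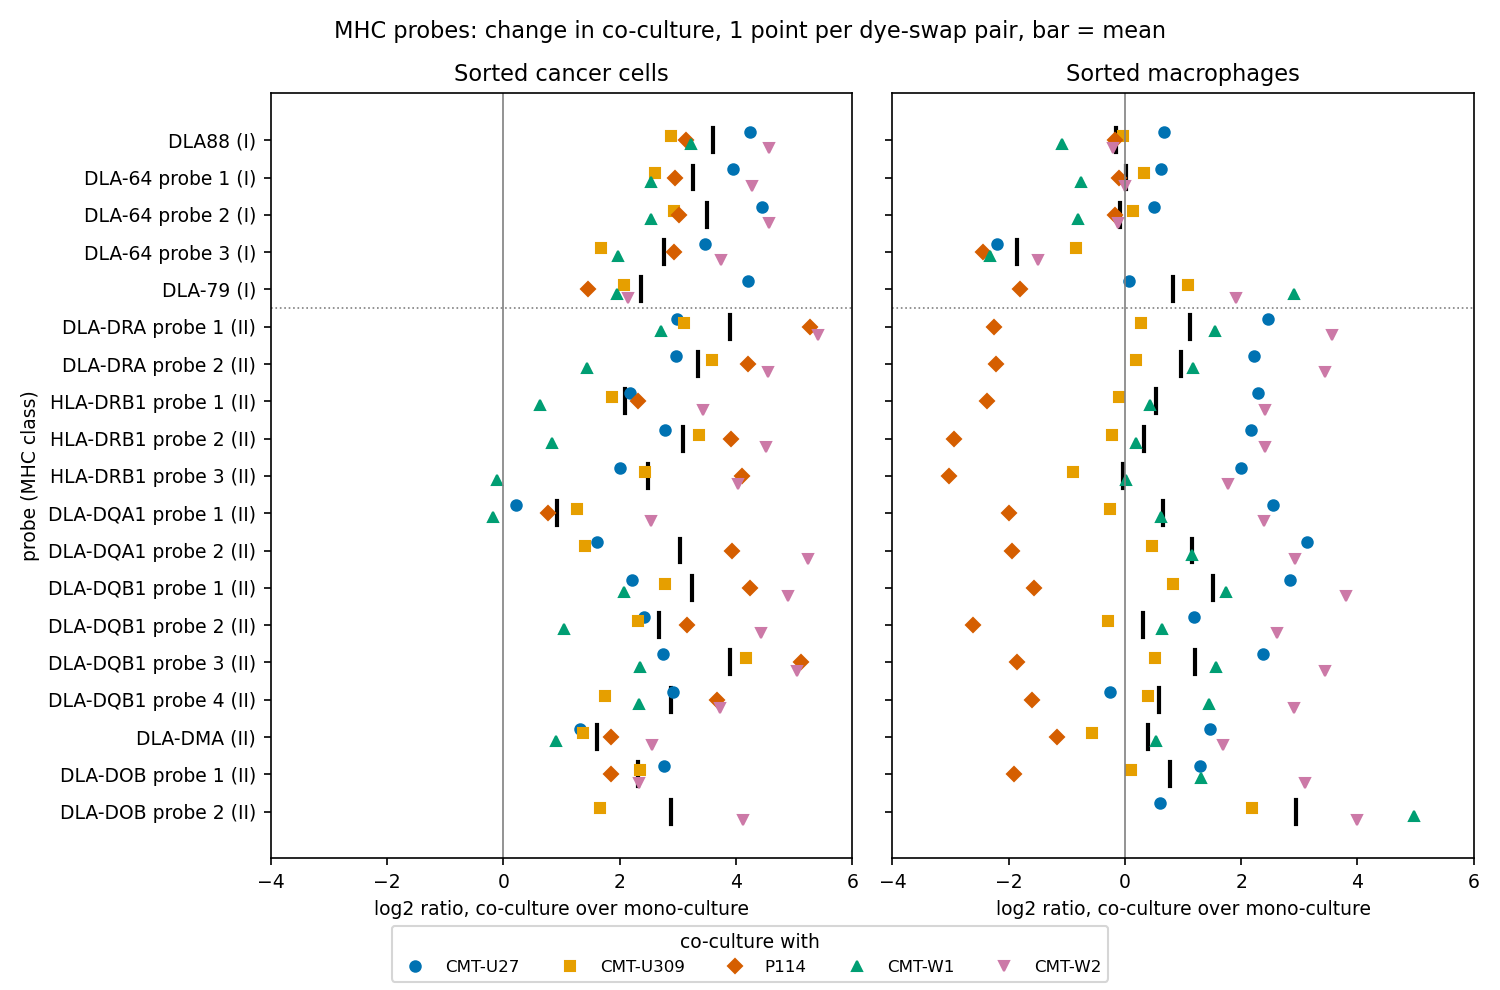
Log2 ratio (co-culture divided by mono-culture) for each MHC probe (rows, class in brackets) in sorted cancer cells (left) and sorted macrophages (right), with 1 point per co-culture (mean of a dye-swap pair) and a bar at their mean. Cancer cell ratios lie above 0 except for 2 values of CMT-W1, and macrophage class II ratios run from -3.03 with P114 to 4.98 with CMT-W1.

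Grown with macrophages, the sorted cancer cells had more class I RNA in every line. The log2 ratio of DLA88 was 4.24 in CMT-U27, 2.88 in CMT-U309, 3.13 in P114, 3.22 in CMT-W1 and 4.57 in CMT-W2. All 5 values were above 0, CMT-U27 and CMT-W2 being the highest. The mean was 3.61 ± 0.75 (SD, n = 5, SE 0.31, adjusted p = 0.00163), a 12.2-fold rise. DLA-64 rose by its 3 probes, with means of 3.26 ± 0.80, 3.50 ± 0.93 and 2.76 ± 0.91 (SD, n = 5, adjusted p = 0.00267, 0.00302 and 0.00693). For its brightest probe the ratio was 3.94 in CMT-U27, 2.61 in CMT-U309, 2.95 in P114, 2.54 in CMT-W1 and 4.28 in CMT-W2. CMT-W2 and CMT-U27 were again the highest. DLA-79 rose by 2.37 ± 1.06 (SD, n = 5, adjusted p = 0.0139). Its ratio was 4.20 in CMT-U27 but 2.07 in CMT-U309, 1.46 in P114, 1.95 in CMT-W1 and 2.14 in CMT-W2, so that CMT-U27 stood apart from the other lines. The DLA-79 ratio of CMT-U27 was 4.82 on one array of the pair and 3.58 on the other, and its mono-culture channel was well above background on 1 of the 2.

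All 5 class I probes and 12 of the 13 class II probes tested were called higher in the co-cultured cancer cells, where 7.41% of all 28256 probes were called higher. Their median log2 ratios were 3.26 and 2.88, against -0.01 over all probes tested. With normexp background correction and loess, 5 class I probes but only 4 class II probes were called, and 1.79% of all. The methods' t-test, which sets co-culture against mono-culture levels without pairing the lines, called 0 of either class and 0.0212% of all probes after Benjamini-Hochberg adjustment. At an unadjusted p under 0.05 it gave 4 of the 5 class I and 8 of the 13 class II probes. At least 3-fold on every measured array, with an adjusted p under 0.05 and a p under 0.01, were 3 class I probes (DLA88 and 2 of DLA-64) and 4 class II probes (1 of DLA-DRA and 3 of DLA-DQB1), and 0.768% of all probes tested. These are the p and fold thresholds stated in the study's methods, applied here to the limma fit. The study's upper and lower cut-offs on values were not applied, so its full criteria were not repeated. Class II ratios were more uneven between lines than class I ratios, with a median SD between lines of 1.25 against 0.91. The 2 arrays of a pair differed by a median of 0.29 for class II and 0.22 for class I.

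DLA-DRA, the DR alpha chain, rose by both of its probes, with means of 3.90 and 3.35. The brighter one was at 2.99 in CMT-U27, 3.11 in CMT-U309, 5.28 in P114, 2.71 in CMT-W1 and 5.41 in CMT-W2, with 3.90 ± 1.33 on average (SD, n = 5, SE 0.48, adjusted p = 0.00569). P114 and CMT-W2 were well apart from the other lines. HLA-DRB1 rose less by its brightest probe, with 2.17 in CMT-U27, 1.87 in CMT-U309, 2.31 in P114, 0.63 in CMT-W1 and 3.43 in CMT-W2 (mean 2.08 ± 1.00, SD, n = 5, adjusted p = 0.0164). Its other probes also rose, by 3.08 and 2.49 (adjusted p = 0.013 and 0.0345), although the third was at -0.10 in CMT-W1. DLA-DQB1, the DQ beta chain, was at 2.22 in CMT-U27, 2.78 in CMT-U309, 4.24 in P114, 2.07 in CMT-W1 and 4.90 in CMT-W2 (mean 3.24 ± 1.26, SD, n = 5, adjusted p = 0.00941), and its other 3 probes rose by 2.68 to 3.89.

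DLA-DQA1 was the class II gene whose probes disagreed. The brightest probe gave 0.22 in CMT-U27, 1.27 in CMT-U309, 0.77 in P114, -0.18 in CMT-W1 and 2.53 in CMT-W2, which did not pass the test (mean 0.92 ± 1.05, SD, n = 5, adjusted p = 0.151). The second probe was 1.60, 1.40, 3.93 and 5.25 in CMT-U27, CMT-U309, P114 and CMT-W2 and passed it (mean 3.04 ± 1.86, SD, n = 4, adjusted p = 0.0333). It was not measured in CMT-W1, and its mono-culture channels were well above background on 5 of 10 arrays. Among the genes that act on peptide loading, DLA-DMA, the DM alpha chain, rose by 1.60 ± 0.63 (SD, n = 5, adjusted p = 0.0154) and DLA-DOB by 2.32 ± 0.37 (SD, n = 4, adjusted p = 0.00693), with CMT-W1 not measured. DLA-DMA was at 1.32 in CMT-U27, 1.38 in CMT-U309, 1.84 in P114, 0.90 in CMT-W1 and 2.56 in CMT-W2. Of the 65 measured class II ratios in cancer cells, 17 had a mono-culture channel not well above background on both arrays, which applied to 2 of the 25 class I ratios.

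The lines kept much the same order across class II. Of 11 class II probes measured in all 5 lines, the ratio was highest in CMT-W2 for 9 and lowest in CMT-W1 for 10, whereas over all 19746 such probes CMT-W2 was highest for 18.2% and CMT-W1 lowest for 17.6%. Macrophage markers moved in the same cells. Their median log2 ratio was 5.75 in CMT-U27, 3.27 in CMT-U309, 3.26 in P114, 3.11 in CMT-W1 and 4.79 in CMT-W2. The medians for class I were 4.20, 2.61, 2.95, 2.54 and 4.28 in that order of lines, and for class II 2.43, 2.33, 3.91, 1.05 and 4.27. Both classes and the macrophage markers were thus above 0 in the cancer cells of every co-culture, while CLDN3, the epithelial marker with a probe, fell by 1.93 (adjusted p = 0.0214). Among mesenchymal markers PDGFRB fell by 1.25 (adjusted p = 0.0463), while COL1A1 and COL1A2 did not pass (0.32 and -0.05). MS4A1, a B cell marker, was at 5.33 in CMT-W2 and 1.84 in CMT-U309 and not measured in the other lines. It was therefore not tested in the cancer cells. The other lymphocyte markers with a probe, CD4 and CD8A, did not pass the test there, CD4 being above 0 and CD8A below 0 on average. The part of these markers in the MHC result was not tested.

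**Figure D2:**
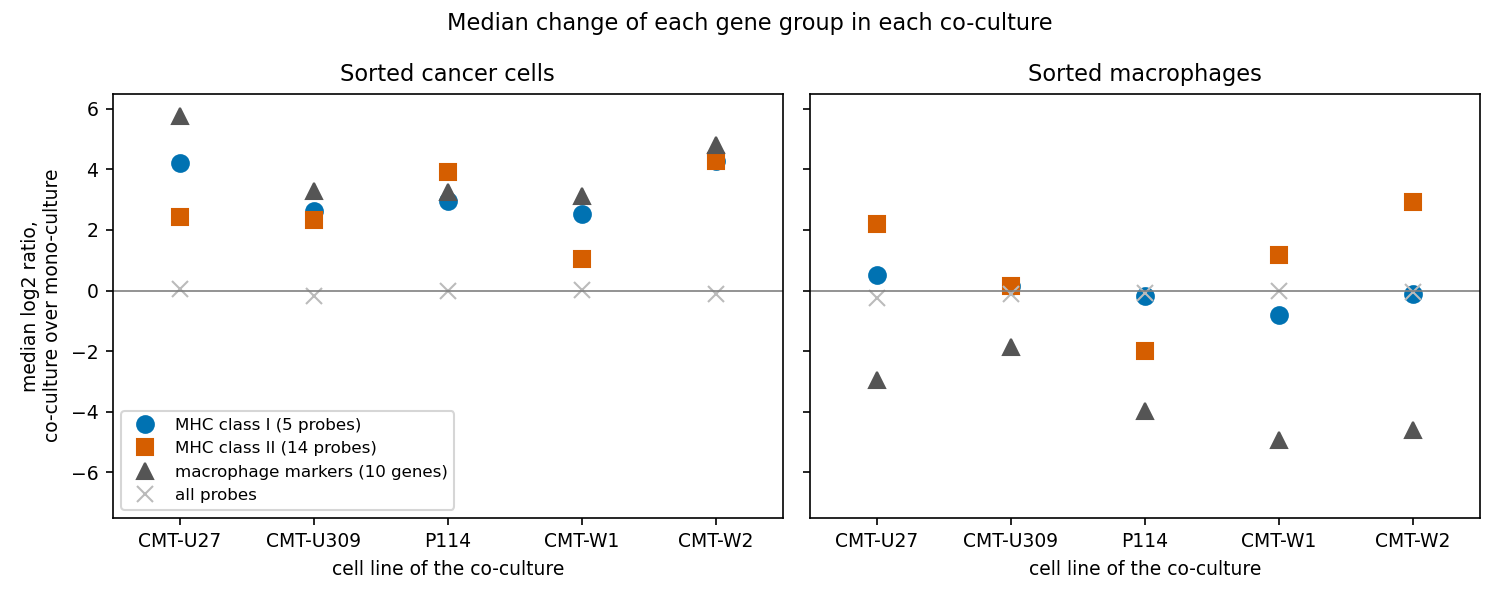
Median log2 ratio (co-culture divided by mono-culture) for class I probes, class II probes (11 to 14 measured), macrophage markers and all probes, in each co-culture, for sorted cancer cells (left) and macrophages (right). In cancer cells both MHC classes and the markers lie above 0, and in macrophages the markers lie between -4.93 and -1.87 while class II runs from -1.99 with P114 to 2.92 with CMT-W2.

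In the sorted macrophages 4 of the 5 class I probes did not pass the test. With normexp background correction and median centring, however, 4 of the 5 were called lower, as were 12.5% of all probes, and the brightest DLA-64 probe turned from 0.02 to -0.95 (adjusted p = 0.0334). DLA88 was at 0.68 with CMT-U27, -0.03 with CMT-U309, -0.17 with P114, -1.08 with CMT-W1 and -0.20 with CMT-W2 (mean -0.16 ± 0.63, SD, n = 5, adjusted p = 0.663). The 2 brighter DLA-64 probes had means of 0.02 ± 0.52 and -0.09 ± 0.48 (SD, n = 5, adjusted p = 0.955 and 0.783). The third DLA-64 probe fell with every line, by 2.19 with CMT-U27, 0.84 with CMT-U309, 2.44 with P114, 2.32 with CMT-W1 and 1.49 with CMT-W2 (mean -1.86 ± 0.68, SD, n = 5, adjusted p = 0.00163). The probes of DLA-64 therefore disagreed, all 3 being well above background in every macrophage sample, and the direction for the gene is uncertain. The 2 brighter DLA-64 probes and DLA88 had higher levels than the third DLA-64 probe in every macrophage sample. Whether their spots came near the upper limit of the scanner, where a change is read too small, was not tested. Their small ratios therefore do not show that class I RNA was unchanged. Called lower in macrophages were 26.6% of all 28510 probes, and 1 of the 5 class I probes. DLA-79 varied from -1.80 with P114 through 0.07 with CMT-U27, 1.09 with CMT-U309 and 1.91 with CMT-W2 to 2.91 with CMT-W1 (mean 0.83 ± 1.81, SD, n = 5, adjusted p = 0.28). Without P114, which had the lowest value, its mean was 1.49 (adjusted p = 0.0339), where 19.3% of all 27611 probes were called higher. P114 was singled out by its low DLA-79 value, so this p-value is no evidence of a rise.

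Class II in the macrophages differed with the line with which they had been grown. DLA-DRA was at 2.47 with CMT-U27, 0.28 with CMT-U309, -2.26 with P114, 1.55 with CMT-W1 and 3.57 with CMT-W2. HLA-DRB1 was at 2.30, -0.11, -2.37, 0.42 and 2.40 in the same order, and DLA-DQB1 at 2.83, 0.82, -1.57, 1.74 and 3.80. The same co-cultures were high and low for all 3 genes, and P114 was the one clearly below 0. DLA-DQA1 was at 2.55, -0.26, -1.99, 0.63 and 2.40, and the loading gene DLA-DMA at 1.47, -0.57, -1.18, 0.54 and 1.68. The brighter DLA-DOB probe was at 1.28, 0.11, -1.90, 1.31 and 3.10. With P114 all 13 measured class II probes were below 0 (-3.03 to -1.18), and with CMT-W2 all 14 were above 0 (1.68 to 3.98). The median SD between co-cultures was 1.99. The 2 arrays of a pair differed by a median of 0.20, which covers technical error only. Each line had 1 co-culture, so that the line and the culture cannot be told apart.

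Over the 5 co-cultures 1 of the 14 class II probes was called higher, where 23.3% of all probes were. Their median log2 ratio was 0.72, against -0.11 over all 28510 probes. The called probe was the dimmer one of DLA-DOB (2.94 ± 1.94, SD, n = 4, adjusted p = 0.0104), which was at 0.60 with CMT-U27, 2.19 with CMT-U309, 4.98 with CMT-W1 and 3.98 with CMT-W2, and was not measured with P114. It was well above background on 9 of 10 co-culture channels and on 3 of 10 mono-culture channels, so that it passed the filter mainly through the co-culture. It was not called when all 5 co-cultures had to be measured or when dim probes were kept. Without P114, 7 of the 14 class II probes and 19.3% of all 27611 probes were called higher, the former from DLA-DRA (1.97 and 1.75, adjusted p = 0.018 and 0.0276), DLA-DQB1 (2.30 and 1.98, adjusted p = 0.00834 and 0.0128), DLA-DQA1 and DLA-DOB. HLA-DRB1 did not pass the test there either (1.25, adjusted p = 0.0684). P114 was singled out by its low class II values, so the p-values without it are no evidence of a rise.

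Of 13 class II probes measured in all 5 co-cultures, 13 were lowest with P114 and 10 were highest with CMT-W2. Among all 25401 probes measured in the 5 co-cultures, P114 was lowest for 17.0% and CMT-W2 highest for 17.2%. Several of these probes read the same gene. Among the 10 macrophage markers, 2 were lowest with P114, 1 was highest with CMT-W2 and 4 were lowest with it. The marker highest with CMT-W2 was CYBB, a subunit of the phagocyte oxidase, which was at 0.99 there and lowest with P114 (-3.99). The median ratio of the markers was -2.94 with CMT-U27, -1.87 with CMT-U309, -3.98 with P114, -4.93 with CMT-W1 and -4.59 with CMT-W2, so that with CMT-W2 the marker median was low while class II was high. Of 14 lymphocyte markers, 3 had a probe. MS4A1, which encodes CD20, rose in the macrophages (2.52, adjusted p = 0.0467), being at -0.25 with CMT-U27, 1.72 with CMT-U309, 0.24 with P114, 5.07 with CMT-W1 and 5.83 with CMT-W2, whereas CD4 (-1.26, adjusted p = 0.0213) and CD8A (-0.64, adjusted p = 0.0448) fell. The summed log2 level of the 3 was 10.3 to 10.5 in mono-cultured and 9.18 to 12.2 in co-cultured macrophages. Of 9 dendritic cell markers 2 had a probe, FLT3 and CD1C. CD1C was at -0.29 (adjusted p = 0.389). FLT3, a receptor of dendritic cell precursors, was too dim to be tested, but was at 3.98 with CMT-U27 and 2.30 with CMT-U309, well above background on both co-culture channels of each and on none of their mono-culture channels. Of 9 mesenchymal markers 3 had a probe, none of which was called in the macrophages, although COL1A1 and COL1A2, the chains of type I collagen, were at 2.95 and 2.87 with CMT-U309. The part of these markers in the class II values was not tested.

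The change of class I, as measured, was larger in the cancer cells than in the macrophages. How far the upper limit of the scanner affected the bright class I spots was not tested. For DLA88 the macrophage ratio minus the cancer cell ratio was -3.77 (SE 0.43, adjusted p = 7.56e-05), and for the 3 DLA-64 probes it was -3.24, -3.59 and -4.62 (adjusted p = 0.00017, 0.00014 and 4.3e-05). DLA-79 did not pass this test (-1.53, SE 0.80, adjusted p = 0.164). For class II the difference passed for 4 of 13 probes, 1 each of DLA-DRA (-2.78, adjusted p = 0.047) and HLA-DRB1 (-2.76, adjusted p = 0.0466) and 2 of DLA-DQB1 (-2.68 and -2.30, adjusted p = 0.0394 and 0.032). The differences of all 5 class I and 13 class II probes were below 0 and 16.3% of all 27142 probes tested were called in this direction. With the cell line as a replicate block, which pairs the populations of one co-culture, 3 of the 11 class II probes tested and 16.9% of all 19126 probes were called. DLA-DRA (adjusted p = 0.0563) and the third DLA-DQB1 probe (adjusted p = 0.0575) no longer passed, while the second DLA-DQB1 probe did (-2.37, adjusted p = 0.0376). Without P114 no class II probe passed and the same number of class I probes, 4, did, as did 11.6% of all probes. Slides carried both cell types in 1 case of 5, with CMT-W1 cancer cells and the macrophages grown with CMT-U27. Within that slide the difference was -2.55 for DLA88 (adjusted p = 0.326) and -4.16 to -1.91 for DLA-64, and for class II it ran from -2.58 to 2.73 with no probe called.

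**Figure D3:**
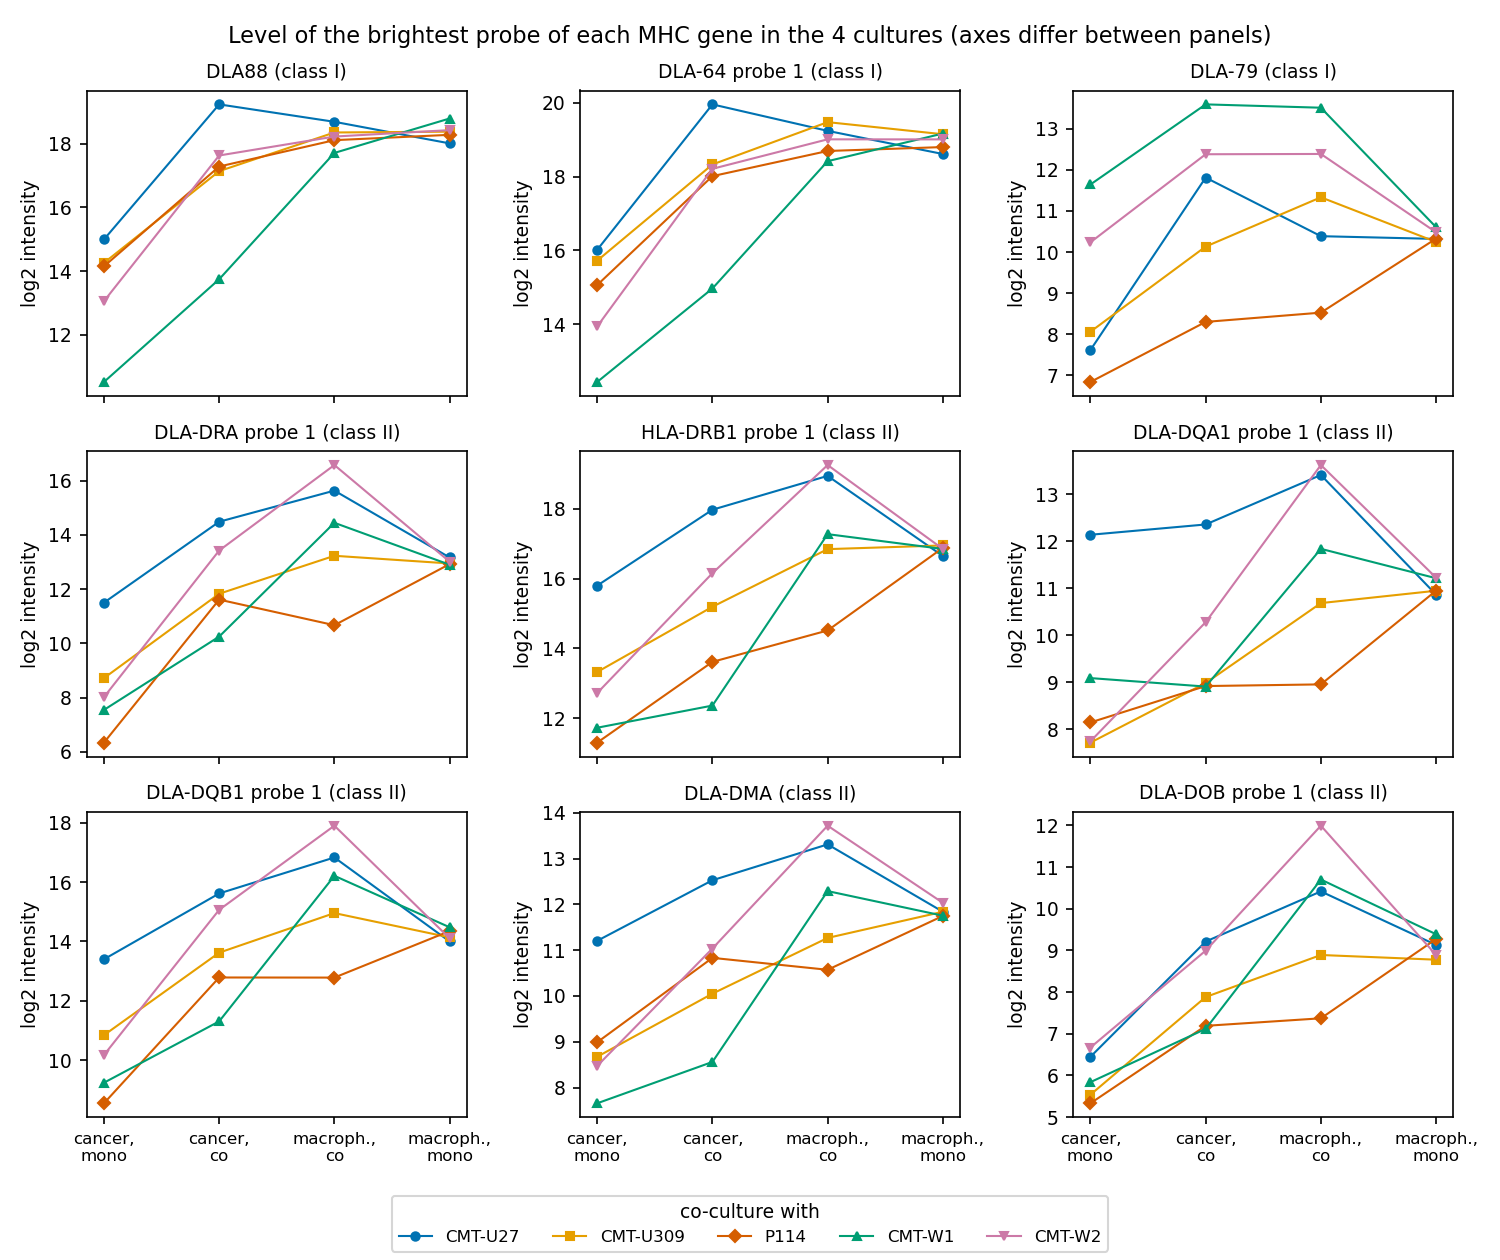
Log2 intensity of the brightest probe of each MHC gene in mono-cultured cancer cells, co-cultured cancer cells, co-cultured macrophages and mono-cultured macrophages, 1 line per co-culture. For DLA88 the cancer cells grown with macrophages reached 13.7 to 19.2, and for the class II genes the macrophages grown with P114 lay below those of every other co-culture.

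As levels, class I and class II of the sorted populations lay apart by amounts that varied between co-cultures, and no MHC probe passed the test. DLA88 was at 19.2, 17.1, 17.3, 13.7 and 17.6 in the cancer cells, in the order of lines used above, and at 18.7, 18.4, 18.1, 17.7 and 18.2 in the macrophages of the same co-cultures. The CMT-W1 cancer cells remained the lowest, and those of CMT-U27 were above their macrophages. Called different between the sorted populations were 0 MHC probes and 0.00715% of all 27982 probes, which were 2 probes. At an unadjusted p under 0.05 there were 0 of 5 class I probes, 3 of 14 class II probes and 735 of all probes. Class II was nevertheless higher on average in the macrophages by all 14 probes, by 1.63 to 2.64 on the log2 scale, without passing the test (adjusted p = 1 for each).

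The size of this gap differed between co-cultures. In the P114 co-culture the class II level of macrophages minus that of cancer cells had a median of 0.02 over the 14 probes, against 5.59 between the mono-cultures. HLA-DRB1 was at 14.5 in these macrophages and 13.6 in these cancer cells, and DLA-DRA at 10.7 and 11.6. With CMT-W1 the median gap was 4.69 after co-culture and 5.06 in mono-culture, this being the line with the lowest class II ratios in its cancer cells. It was 1.11, 1.42 and 3.15 for CMT-U27, CMT-U309 and CMT-W2. For class I the median gap after co-culture was -0.72 with CMT-U27 and 3.45 with CMT-W1, between 0.59 and 1.20 with the other lines, and 3.02 to 6.74 in mono-culture. DLA-79 had almost the same level in both sorted populations for 3 lines, with 8.30 and 8.52 for P114, 13.6 and 13.5 for CMT-W1, and 12.4 in both for CMT-W2. The lines with the highest DLA-79 in mono-cultured cancer cells, CMT-W1 and CMT-W2, also gave the highest DLA-79 in the macrophages sorted from their co-cultures.

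**Figure D4:**
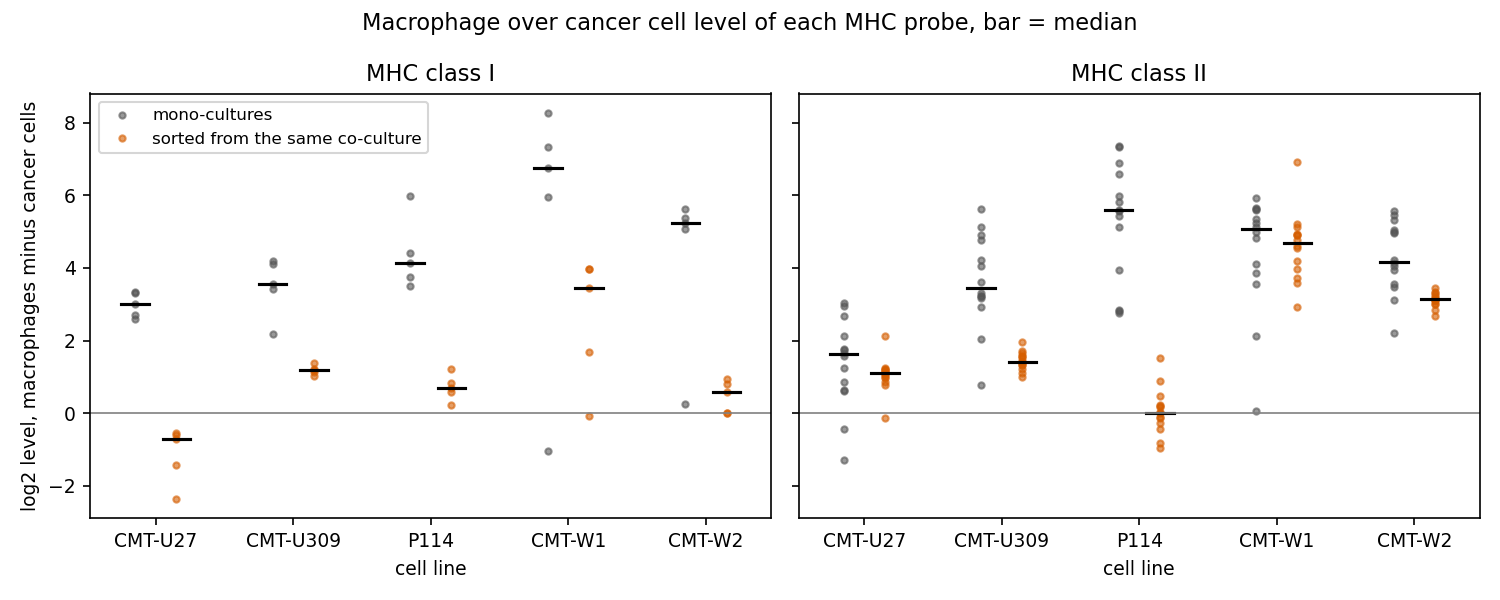
Log2 level in macrophages minus that in cancer cells for each MHC probe (points) with the median (bar), in the mono-cultures (grey) and in the populations sorted from one co-culture (orange), by cell line. The class II median falls from 5.59 to 0.02 for P114 and stays at 4.69 after co-culture for CMT-W1.

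Other genes of antigen presentation were sparsely covered. Of 17 genes of the class I pathway 4 had a probe, and in the cancer cells PSMB8 (4.84, adjusted p = 0.00309) and PSMB9 (2.40, adjusted p = 0.0196), subunits of the immunoproteasome that cuts peptides for class I, rose. PSMB8 was well above background on both co-culture channels of every line, but on 0 mono-culture channels of P114, CMT-W1 and CMT-W2. It thus passed the filter mainly through the co-culture, and the size of its rise is uncertain. TAPBP, which bridges class I molecules to the peptide transporter (1.14, adjusted p = 0.0554), and the chaperone CANX (0.79, adjusted p = 0.054) did not pass. In the macrophages TAPBP fell by 0.99 (adjusted p = 0.0071), PSMB8 was at -1.02 (adjusted p = 0.12) and PSMB9 at 0.02 (adjusted p = 0.972). The median of the 4 was 1.77 in cancer cells and -0.49 in macrophages. Of 15 class II pathway genes 2 had a probe. The proteases CTSS, which cleaves the invariant chain and is also one of the macrophage markers above (5.92, adjusted p = 0.000451), and CTSD (1.79, adjusted p = 0.0218) rose in the cancer cells and fell in the macrophages (-2.92 and -2.13, adjusted p = 0.0129 and 0.00189).

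Of 27 genes of the interferon axis, 6 had a probe and 5 were tested, IFNG being too dim. In the cancer cells 2 rose, MX1 (4.83, adjusted p = 0.00138) and OAS1 (3.39, adjusted p = 0.00661), both antiviral genes. CXCL10, a chemokine induced by interferons, was at 4.13 (adjusted p = 0.054) there and rose in the macrophages by 4.28 (adjusted p = 7.32e-05), with 3.17 or more in all 5 co-cultures. OAS1 and OAS3 fell in the macrophages by 0.87 and 1.05 (adjusted p = 0.0329 and 0.012). MX1 in macrophages was lowest with P114 (-2.67) and highest with CMT-W2 (0.78), with -0.38 on average (adjusted p = 0.544). DLA-64, PSMB8, PSMB9, MX1 and CTSS are among the genes that the study itself picked from these arrays in cancer cells, and CXCL10 in macrophages, so their direction there is not independent evidence. The same holds for the macrophage markers CD163, C5AR1, CD86 and ADGRE1 (listed by the study as EMR1) in cancer cells, and for C5AR1 and CD86 in macrophages.

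Over the 20 levels (the 4 cultures of the 5 lines, of which the mono-cultured macrophages may be repeats of one culture), the brightest class I probe, DLA-64, varied most like PTGES and OAS1 (r = 0.968 each), LGALS9 (0.955), ATP6V0E1 (0.941) and COX17 (0.935) among 681 genes. The brightest class II probe, HLA-DRB1, varied most like LGALS9 (0.923), MX1 (0.898), P2RX7 (0.892), PSMB9 (0.884) and PLEK (0.878). The levels share libraries and cultures, so these are descriptions. PTGES, ATP6V0E1, COX17, MX1 and PSMB9 are also among the genes that the study picked from these arrays in cancer cells. Within the MHC, DLA88 correlated at 0.994 with that DLA-64 probe and DLA-79 at 0.161, and the other 13 class II probes correlated with HLA-DRB1 at 0.736 to 0.987.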

How the data were processed

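Gene expression was measured with 20 two-colour Agilent arrays. The authors deposited each array's scanner output from Agilent Feature Extraction 10.7.3.1, whose intensity columns hold background-corrected and dye-normalized spot signals on a linear scale. Its deposited log10 ratio column holds Cy5 over Cy3, and a deposited table of values equals it up to sign. No column was without a sample. The genome build used in processing is not given in the sources used here.

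Outlier spots were left out, every ratio was expressed as log2 of co-culture to mono-culture, and both arrays of a dye-swap pair were averaged. A line counted where either channel was well above background on both arrays, and a probe was tested with at least 3 of 5 lines. Levels were the log2 processed signals after Aquantile normalization, averaged over both dyes. Tests of levels were made within a probe. Between probes, levels served to rank probes by brightness, to sum marker levels and for correlations. limma 3.58.1 (R 4.3.3) was fitted to all probes, each on its own, with Benjamini-Hochberg adjustment over all probes tested and a threshold of 0.05. Probes were named through RefSeq accessions (1648 of 43603 probes). Python 3.11.15 with pandas 2.3.3 and matplotlib 3.10.9 made the summaries and plots. The fits were tested on simulated data.

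The members are all probes with a DLA or HLA- symbol, and the pathway and marker lists take the brightest probe per gene. The most similar genes were the 5 with the highest Pearson r over the 20 levels, among genes well above background in at least 10 of them. Members and lists were chosen with earlier results of these data known. Number of arrays limits the precision.

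Both populations of a co-culture share the cell line and are paired by design. Their deviations from the group means over 19126 probes correlated at 0.458 in the CMT-U309 co-culture, 0.265 in CMT-W1, 0.187 in P114, 0.049 in CMT-W2 and 0.023 in CMT-U27. Alternatives were other background corrections and normalizations, filters, single dye orientations, the slide as a block, the replicate block, the methods' t-test and each line left out. Promoter motifs were not searched, since promoter sequences were not used here.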

Additional observations from a re-analysis of the deposited data

Results flagged for a closer look

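Of 113 sets of 4 or 5 values (log2 ratios per cell type and log2 levels per culture of each MHC probe), 2 held a value far from the others by Dixon's test, and chance gives about 1 in 20. The DLA-79 ratio of CMT-U27 cancer cells was 4.20, with the next line at 2.14. The level of the dimmer DLA-DOB probe in mono-cultured CMT-U309 cells was 4.87, with the next line at 4.32, where this probe was well above background on 3 of 10 channels. The CMT-U309 value rested on 1 array, as the spot on the other was marked as an outlier.

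The change in macrophages minus that in cancer cells passed the limma test for 8 probes. These were 4 of the 5 class I and 4 of the 13 class II probes tested. Among all 27142 probes tested, 16.3% had a change called lower in macrophages. The difference was -3.77 for DLA88 (adjusted p = 7.56e-05). For DLA-64 probes 1, 2 and 3 it was -3.24, -3.59 and -4.62 (adjusted p = 0.00017, 0.00014 and 4.3e-05). It was -2.78 for DLA-DRA probe 1 (adjusted p = 0.047), -2.76 for HLA-DRB1 probe 2 (adjusted p = 0.0466), and -2.68 and -2.30 for DLA-DQB1 probes 3 and 4 (adjusted p = 0.0394 and 0.032).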

How the results depend on the processing

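Of 1394 values of single MHC probes under the alternatives, 1244 kept direction and side of the threshold, 94 no longer passed, 17 newly passed, 36 changed sign without a call in either fit, and 3 changed sign with a call in 1 of them. DLA-64 probe 1 in macrophages, at 0.02 and not called, was -0.95 with normexp and median centring (adjusted p = 0.0334). With the slide as a fixed block the difference between cell types was 0.022 for DLA-DQB1 probe 3 and 1.33 for HLA-DRB1 probe 2. Median centring moved the median of all probes in cancer cells to 0.215.

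Cancer cells: 5 class I probes stayed called with each line left out, and class II counts were 8 (without P114) to 12. Of all probes 3.49% (without P114) to 5.94% were called higher there. The methods' t-test called 0 of either class (0.0212% of all probes), and normexp with loess called 4 class II probes (1.79% of all). With 1 probe per gene, 3 class I and 5 class II genes were called, and 7.2% of all. Macrophages: with lines left out class I stayed at 1 lower and class II ran from 1 to 7, the latter without P114. Of all probes 20.6% to 29.2% were called lower there and 18.6% to 23.6% higher. Median centring called 4 class I probes lower (12.5% of all) and 1 probe per gene 0 (27.9% of all). No class II probe (0) was called with 1 probe per gene, all 5 co-cultures measured, no filter on dim probes or normexp with loess. The same held for normexp with median centring, one fit for both cell types and the methods' t-test. In these fits 12.4% (no filter on dim probes) to 24.5% (one fit for both cell types) of all probes were called higher. Difference between cell types: class I stayed at 4 with lines left out, was 0 with the slide as a fixed block and 2 with 1 probe per gene. Class II, 4 in the fit as reported, ran from 0 (without P114) to 4 and was 1 without CMT-U27 or CMT-U309. It was 1 with the co-culture in Cy3 only, with median centring or with 1 probe per gene. It was 0 with no filter on dim probes, normexp with loess or the slide as a fixed block. With the slide as a random block, whose estimated correlation was -0.282, it was 8. The replicate block gave 4 class I and 3 class II probes, and 16.9% of all. Of all probes 16.3% were called lower in the fit as reported and 10.9% to 15.3% with lines left out. The share was 0.0418% with the slide as a fixed block and 20% with it as a random block. With the other alternatives named it ran from 11.7% (no filter on dim probes) to 16.1% (1 probe per gene). Mono-culture levels gave 4 to 5 class I and 11 to 13 class II probes with lines left out, and 2 and 6 genes with 1 probe per gene. Called higher in macrophages were 13.8% to 24.6% of all probes with lines left out, and 19.8% with 1 probe per gene. Between co-culture levels 0 MHC probes and at most 0.00843% of all probes were called under each alternative run. The cause of these changes was not tested, apart from fewer probes where 1 probe per gene was kept. In the cancer cells 19 of 90 ratios had a dim mono-culture channel and 5 rested on 1 array.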
